A study of Mus musculus with 5 samples.

Results

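Most Clec genes encode proteins with a C-type lectin domain, and RNA of the Clec genes was followed across the immune cells of mouse dermis. Members were all genes of the deposited gene table whose symbol begins with Clec, except Clec10a, which gave 29 of 27998 genes. The data were 3′ single-cell RNA libraries of live dermal cells sorted for the leukocyte surface protein CD45 from C57BL/6 mice, 1 library for each of 5 groups and no replicates. P50_Depil5D skin had been depilated, with 5 days named in the label, which does not say whether day 50 was the day of depilation or of collection. P45, P50, P63 and P80 skin was taken at those postnatal days, within the resting phase of the hair cycle according to the series' design. No mutation, agent, sex or number of animals is given for any group, so all of them share the strain and the sort.

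Proteins with this domain sit at the cell surface or are secreted, and many bind sugars or other ligands on microbes and on dying cells. Receptors such as Dectin-2 (Clec4n) and Mincle (Clec4e) signal through the adaptor Fcer1g and the kinase Syk, whereas DCIR (Clec4a2) and Clec12a carry inhibitory motifs that recruit phosphatases. Skin macrophages, Langerhans cells and dermal dendritic cells are known to carry different sets of them. The Clec2 proteins work the other way round, as ligands read by the NKR-P1 receptors (Klrb1 genes) of NK and T cells.

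The cells kept numbered 1485 in P50_Depil5D, 2139 in P45, 1458 in P50, 574 in P63 and 485 in P80, with median UMIs (unique molecules counted) per cell from 1249 in P80 to 2543 in P45. Barcodes that also occurred in another library were carried by 179 kept cells in P50_Depil5D, 12 in P45, 198 in P50, 195 in P63 and 244 in P80. In P80 these were 244 of 485 cells. In the age and depilation pairs, named ratios that change sign or move by over 1.5 times without those cells are given both ways. Cluster levels were not recomputed without them. Cells were assigned by marker gates, each needing at least 2 of 6 marker genes, none of them a Clec gene. Gates for the Ccr7/Ccl22 dendritic state, NK cells, endothelial cells and mural cells caught 22, 13, 38 and 12 cells and were too small to test, so unsupervised clusters built without Clec genes were used beside them. These were a Ccl22- and Ccr7-led cluster of 262 cells, an endothelial cluster of 57 cells and a cluster of 247 cells led by Gzmc, Ccl1 and Klra7. The Gzmc-led cluster had 493 CPM (counts per 1000000 UMIs of the cluster or gate) of the NK marker list but 3508 CPM of the T cell list, and 166 of its cells lay in the T cell gate and 10 in the NK gate, so it is called by its leading gene. The Ccr7/Ccl22 cluster had 1227 CPM of its own list and 2540 CPM of the Cd209a/Mgl2 list. In each of the tested gates every marker of its own list was detected. Of the 1174 cells in the Cd209a/Mgl2 gate, 406 stood at the minimum of 2 markers and 561 had a lead of 1 marker over the next gate. Clusters of the same name held 738 of them. The macrophage gate had 1453 CPM of the Cd209a/Mgl2 list, against 3296 in the Cd209a/Mgl2 gate. That gate had 343 CPM of the macrophage list, against 10482 in the macrophage gate. Of the 60 cells in the monocyte gate, 27 stood at the minimum of 2 markers and 37 had a lead of 1 marker over the next gate. No cluster was named for monocytes, and 32 of the 60 cells lay in a 170-cell cluster led by Ngp, S100a9 and Camp. That cluster had 2974 CPM of the neutrophil marker list and 2039 CPM of the monocyte list. It also held the 3 cells of the neutrophil gate, which had 169527 CPM of the neutrophil list. The monocyte gate had 165 CPM of the neutrophil list and 4718 CPM of its own. The Cd207 gate, meant for Langerhans cells, also held 5580 CPM of keratinocyte marker RNA against 10637 CPM of its own markers. The part of that RNA in the results was not tested. A lower level in summed cells can come from fewer positive cells or from less RNA per cell, and these sums cannot tell the 2 apart.

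Of the 29 genes, 22 lie on chromosome 6 in the mm10 assembly, and 19 of them form a pair of clusters there. One holds 9 genes from Clec4a1 to Clec4e (chr6:122921848-123289870) and the other 10 genes from Clec2h to Clec1a (chr6:128662385-129452000). Promoter sequences from RefSeq (GRCm38.p6, 250 bases before to 50 after the transcription start) matched 24 of the 29. For each tested gate the gene with the highest called fold over the mean of the other gates is shown, so that neighbouring genes can be set side by side. That order depends on the fit, since over the T cell gate Clec4n had the highest fold in the Cd209a/Mgl2, Cd207, macrophage and monocyte gates. The folds used for Clec4b1, Clec4a3, Clec4e, Clec12a and Clec4n also depend on the prior count of the fit, as described below. The gate beside each of these genes is therefore not a ranking by size. Clec4n is named only. Capitals mark the letters GAGGAA or their complement TTCCTC, searched on both strands, a core bound by PU.1, a transcription factor of myeloid cells. The 5 sequences run 5′ to 3′ on each gene's own strand.
Clec4b1, chr6:123049712-123050011, plus strand, Cd209a/Mgl2 gate: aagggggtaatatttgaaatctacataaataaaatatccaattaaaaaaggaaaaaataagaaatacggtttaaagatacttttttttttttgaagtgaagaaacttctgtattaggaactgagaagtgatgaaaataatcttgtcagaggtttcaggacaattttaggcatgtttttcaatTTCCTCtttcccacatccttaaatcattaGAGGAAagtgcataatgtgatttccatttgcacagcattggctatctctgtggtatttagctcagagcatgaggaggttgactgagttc
Clec4a3, first listed start, chr6:122952265-122952564, plus strand, macrophage gate: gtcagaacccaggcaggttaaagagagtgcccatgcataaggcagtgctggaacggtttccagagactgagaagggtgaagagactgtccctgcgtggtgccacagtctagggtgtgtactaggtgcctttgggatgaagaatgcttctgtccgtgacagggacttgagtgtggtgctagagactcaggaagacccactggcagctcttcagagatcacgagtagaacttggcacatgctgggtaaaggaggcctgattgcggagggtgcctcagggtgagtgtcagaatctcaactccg
Clec4e, chr6:123289822-123290121, minus strand, monocyte gate: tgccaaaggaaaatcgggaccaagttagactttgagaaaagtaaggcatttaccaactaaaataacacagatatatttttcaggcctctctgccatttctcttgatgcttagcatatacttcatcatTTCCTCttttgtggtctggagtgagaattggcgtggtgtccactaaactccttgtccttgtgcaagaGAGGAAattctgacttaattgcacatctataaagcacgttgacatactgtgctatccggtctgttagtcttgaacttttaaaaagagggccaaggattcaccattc
Clec12a, chr6:129349994-129350293, plus strand, Xcr1 gate: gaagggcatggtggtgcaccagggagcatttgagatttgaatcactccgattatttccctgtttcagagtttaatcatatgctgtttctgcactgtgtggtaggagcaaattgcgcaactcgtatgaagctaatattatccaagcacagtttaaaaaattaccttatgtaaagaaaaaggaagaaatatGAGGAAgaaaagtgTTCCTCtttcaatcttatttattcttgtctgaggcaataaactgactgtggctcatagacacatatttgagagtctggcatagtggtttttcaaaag
Clec2d, chr6:129180365-129180664, plus strand, T cell gate: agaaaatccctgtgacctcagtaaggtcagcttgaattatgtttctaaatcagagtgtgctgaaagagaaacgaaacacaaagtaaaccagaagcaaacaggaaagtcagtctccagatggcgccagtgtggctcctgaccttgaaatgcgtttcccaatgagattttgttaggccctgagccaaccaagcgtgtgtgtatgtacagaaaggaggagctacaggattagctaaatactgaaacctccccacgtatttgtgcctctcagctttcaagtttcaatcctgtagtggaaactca
The core was present in 14 of the 26 listed Clec promoters (24 genes), or 53.8%, and in 9289 of 32851 promoters in the whole table, or 28.3%. Clec4b1, Clec4e and Clec12a held 2 copies each, Clec2d and the first listed Clec4a3 start held 0, and a further Clec4a3 start held 1. A match describes the letters in this window and is not evidence of binding.

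Of the 29 genes, 14 had at least 50 UMIs over all kept cells, 12 had between 1 and 49, and Clec2h, Clec18a and Clec3a had 0. Clec4b1 had 2320 UMIs, Clec4a2 1906, Clec2d 1190, Clec4a1 1081, Clec4a3 1018, Clec4n 516, Clec12a 477, Clec4e 302, Clec2i 240, Clec4g 160, Clec3b 91, Clec11a 78, Clec4d 75 and Clec16a 60. Below 50 UMIs were Clec9a (49), Clec5a (48), Clec1a (33), Clec2l (28), Clec1b (22), Clec2g (21), Clec4b2 (17), Clec14a (13), Clec4f (3), Clec12b (2), Clec2e (1) and Clec4a4 (1). The 14 genes at or over 50 UMIs are plotted by gate and library, and most of the receptors stood high in dendritic or macrophage gates and near 0 in T cells and keratinocytes.

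**Figure D1:**
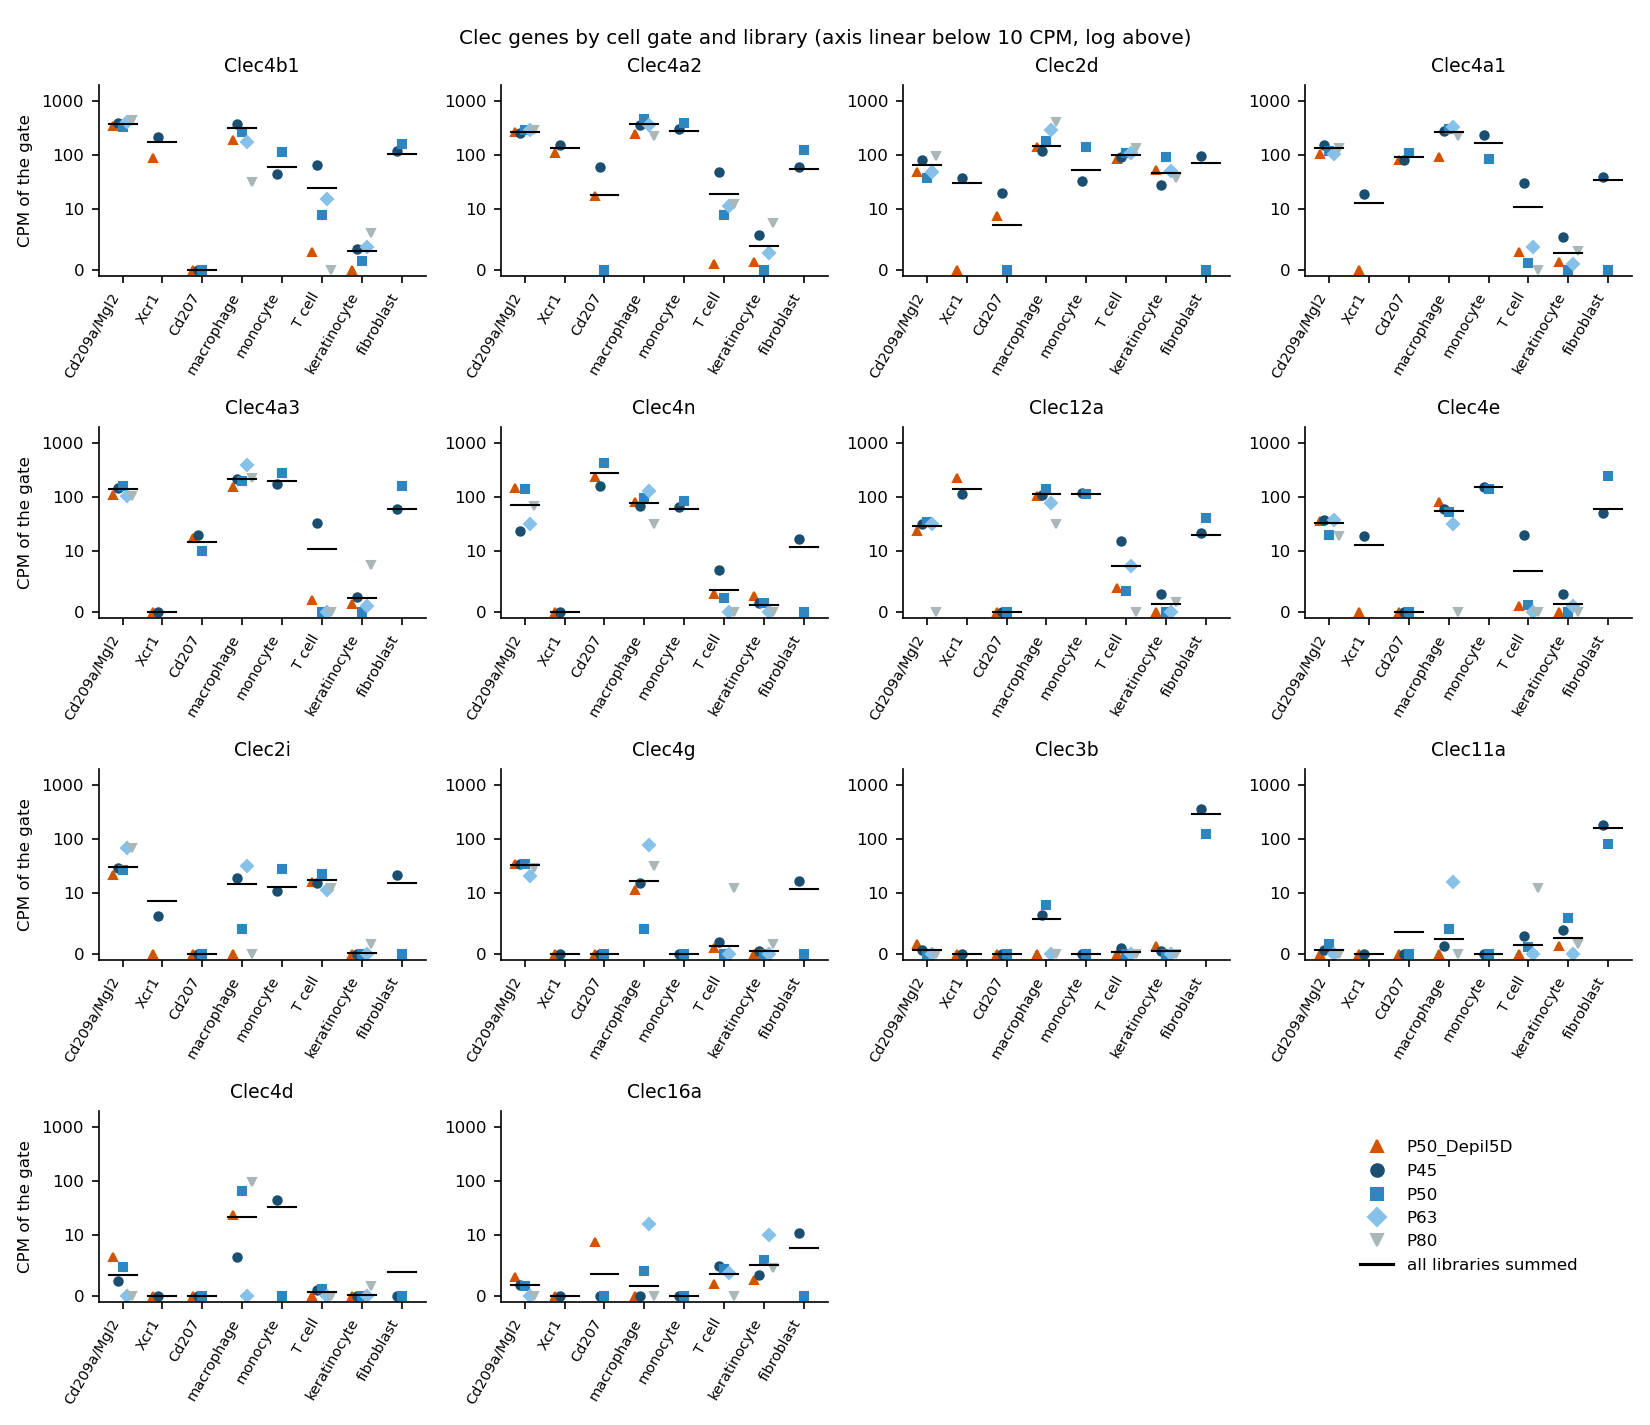
Level of each Clec gene with at least 50 UMIs, as CPM of the gate, in 8 cell gates (horizontal axis). Points are single libraries with at least 10 cells in the gate and black lines are all libraries summed. Clec4b1 stood at 371 CPM in the Cd209a/Mgl2 gate and at 0 in the Cd207 gate, whereas Clec4n stood at 280 CPM in the Cd207 gate.

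Gates were compared over 22 sums of cells, 1 per gate and library, by edgeR's quasi-likelihood test with Benjamini-Hochberg adjustment over 3130 genes and library as a block. Levels of single libraries are given where the gate held at least 10 cells of that library, unless stated. Each gate was set against the mean of the other gates on the log scale, and an adjusted p under 0.05 was called. The libraries differ in age or depilation, and the labels do not say how many animals each held. With library as a block, these p-values measure how far the differences between gates vary from library to library. They do not measure a spread between animals. Only 8 of the 29 Clec genes passed the low-count filter of that fit (Clec4a1, Clec4a2, Clec4a3, Clec4b1, Clec4n, Clec4e, Clec2d and Clec12a), and genes passed it through the gates where they are high, so counts of calls over these 8 describe them only. For 5 of the 8, a gate stood at 0 UMIs (Cd207 for Clec4b1, Clec12a and Clec4e, Xcr1 for Clec4a3 and Clec4n). Their fits in the T cell gate gave no usable error, so they could not be called lower there. Their fitted folds over the mean gate depend on the prior count of the fit, and so their size is given over the T cell gate from the same fit, or as CPM. Where a fold over the mean gate is also printed for these genes, it shows the direction of a call and not its size. Leaving out P45, the library with most UMIs, moved several folds by over 1.5 times, and those values are given beside them.

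Clec4 receptors of the DCIR and DCAR families were higher in the Cd209a/Mgl2 gate, 1174 dermal dendritic-like cells named by Cd209a and Mgl2, than in the mean of the other gates. There 5 of the 8 tested genes were called higher and 0 lower (Clec4b1, Clec4a1, Clec4a2, Clec4a3 and Clec4n), where 16.5% of all tested genes were called higher and 3.13% lower. Clec4b1, a DCAR-family receptor that signals through Fcer1g, stood at 346 CPM in P50_Depil5D, 388 in P45, 326 in P50, 411 in P63 and 448 in P80. All 5 libraries were high, and the T cell gate stood at 2.92, 65.6, 9.0, 15.3 and 0 CPM in the same order, without overlap. Clec4b1 was higher in the Cd209a/Mgl2 gate than in the other gates (adjusted p = 4.06e-06, edgeR), and its log2 fold over the T cell gate was 4.72 (SE 0.47). A UMI of Clec4b1 was found in 56.0% of Cd209a/Mgl2 cells (exact 95% interval 53.1 to 58.8%) and in 1.40% of keratinocytes, a cell type that should lack it, at median depths of 2459.5 and 2651 UMIs per cell. With every cell thinned to 1000 UMIs, which left out 41 and 117 shallower cells, the shares were 29.5% and 0.421%.

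Clec4b1 also differed among the dendritic gates. It reached 174 CPM in the Xcr1 gate (interval 124 to 237; 64 cells), where P50_Depil5D had 89.1 and P45 had 214 CPM. In the Cd207 gate it had 0 UMIs in 73 cells, where 3 counts would have been 11 CPM. Its level of 315 CPM in macrophages (interval 284 to 349) ran from 31.8 in P80 to 368 in P45, so the macrophage libraries overlapped the low end of the Cd209a/Mgl2 libraries. The Cd207 gate was called lower for Clec4b1 (adjusted p = 0.00772, edgeR), a call that was lost against the T cell gate alone (adjusted p = 0.207). With clusters its fit there gave no usable error (adjusted p = 1), so it could not be called.

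Clec4a2, the inhibitory receptor DCIR, was high in macrophages, monocytes and Cd209a/Mgl2 cells alike. In the macrophage gate it had 247 CPM in P50_Depil5D, 366 in P45, 465 in P50, 366 in P63 and 223 in P80, and in the Cd209a/Mgl2 gate 268, 252, 288, 288 and 292 CPM. The macrophage libraries were the more scattered, and both gates lay far above T cells, whose highest library was P45 at 49.7 CPM. The log2 fold over the other gates was 2.16 (SE 0.37; adjusted p = 0.000107, edgeR) for macrophages and 2.05 (SE 0.35; adjusted p = 0.000256) for Cd209a/Mgl2 cells. Monocytes, which circulate and enter skin, had 284 CPM, Xcr1 cells 135 CPM and Cd207 cells 18.4 CPM. The lower call for Clec4a2 in the Cd207 gate (log2 fold -2.97, SE 0.82, adjusted p = 0.0136) was lost without P50 (log2 fold -2.16, adjusted p = 0.136), was -3.77 without P45 and changed sign with clusters (0.0021) and over the T cell gate (0.24).

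Clec4a1 and Clec4a3, relatives of Clec4a2 encoded beside it, were both higher in macrophages. The macrophage gate had 94.0 CPM of Clec4a1 in P50_Depil5D, 273 in P45, 299 in P50, 334 in P63 and 223 in P80. Its log2 fold over the other gates was 2.47 (SE 0.36; adjusted p = 1.65e-05, edgeR) and 3.87 without P45, and P50_Depil5D was the lowest library and overlapped the Cd209a/Mgl2 gate, which had 103 to 157 CPM and a log2 fold of 1.53 (SE 0.35; adjusted p = 0.0034; 2.88 without P45). Clec4a3 had 153 CPM in P50_Depil5D macrophages, 218 in P45, 202 in P50, 397 in P63 and 223 in P80, with a log2 fold over T cells of 4.65 (SE 0.55). These 2 genes parted in the Cd207 gate, where Clec4a1 had 92.0 CPM (interval 59.5 to 136) with 80.6 in P50_Depil5D, 79.8 in P45 and 110 in P50, while Clec4a3 had 14.7 CPM. In the Xcr1 gate Clec4a1 had 3 UMIs and Clec4a3 had 0. Clec4b1 shares with Clec4a2 7.35% of the 60-base words in the last 500 bases of its transcripts, the stretch that 3′ reads cover, so a small part of these reads may have been split or dropped by the authors' counting.

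All 8 tested Clec genes were called higher in macrophages, a gate of 510 cells defined by complement and scavenger genes, and 0 lower, where 16.8% of all tested genes were called higher and 5.14% lower. The median log2 fold of the 8 was 2.47 there and 1.94 in the Cd209a/Mgl2 gate. These medians describe the 8 only, because the filter passed them through the gates where they are high. They include the 5 genes whose folds depend on the prior count. In T cells, 1 of the 8 (Clec2d) was called higher and 2 lower, where 24.2% and 18.0% of genes were. The count of 2 leaves out the 5 genes without a usable error there, and DESeq2 called 7 lower. The lower calls were Clec4a1 (log2 fold -3.28, SE 0.63, adjusted p = 0.000218, edgeR) and Clec4a2 (-3.25, SE 0.56, adjusted p = 6.34e-05). Without P45 the fold of Clec4a2 was -4.52, and that of Clec4a1 was -4.00 but no longer called (adjusted p = 1). With clusters their fits (-3.39 for Clec4a1 and -3.53 for Clec4a2) gave no usable error (adjusted p = 1 for each), so neither could be called. The T cell clusters held 953 of the 1908 gated T cells, and these had 2.21 CPM of Clec4a1 and 3.68 of Clec4a2. The P45 T cell gate was the one with the most Clec RNA, and it also held 269 CPM of the macrophage marker list, against 10.7 to 49.7 in the T cell gates of the other libraries. It held 561 CPM of the Cd209a/Mgl2 list, against 39.4 to 217 CPM there, and 42 of its 388 cells, which had 217 CPM of Clec4b1, lay in an unnamed cluster led by Arap3. The 37 P45 cells of this gate that lay in T cell clusters had 58.5 CPM of Clec4b1 (5 UMIs). The part of the myeloid marker RNA in the T cell levels was not tested.

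Clec4n, which encodes Dectin-2, a receptor for fungal mannans, was higher in the Cd207 gate. It had 233 CPM in P50_Depil5D, 160 in P45 and 422 in P50, and 0 UMIs in the 5 P63 cells and the 1 P80 cell. The 3 larger libraries all lay above the T cell gate, which had 3.67 CPM over all libraries, and above the keratinocyte gate with 1.14 CPM. Clec4n was the 1 tested Clec gene called higher in that gate (adjusted p = 9.99e-05, edgeR), where 10.3% of genes were called higher and 7.6% lower, and its log2 fold over T cells was 5.97 (SE 0.61). A UMI was found in 42.5% of Cd207 cells and in 0.562% of keratinocytes, and in 18.6% and 0.105% after thinning. The 4 called lower there were Clec4b1, Clec12a, Clec4a2 and Clec2d. Clec12a had 0 UMIs in the gate, and its call was lost over the T cell gate (adjusted p = 0.211). With clusters its fit gave no usable error (adjusted p = 1), so it could not be called. Clec2d had 7.36 CPM (log2 fold over T cells -3.48, SE 0.81), and its call over the mean gate (-3.23) was lost without P45 (-2.87, adjusted p = 1) or without P50 (-2.29, adjusted p = 0.119).

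Within the Cd209a/Mgl2 gate, Clec4n split the libraries into a high and a low set. P50_Depil5D had 146 and P50 had 144 CPM, while P45 had 23.3, P63 had 32.0 and P80 had 68.1 CPM. The call for this gate (adjusted p = 0.00855, edgeR) was lost without P50 (adjusted p = 0.0711) or without P50_Depil5D (adjusted p = 0.0846), with log2 folds of 2.04 and 1.87 against 2.31, and 3.05 without P45. Of the 1174 gated cells, 173 fell in the Ccr7/Ccl22 cluster, a state that dendritic cells take on as they mature and migrate, and these had 221 CPM of Clec4n. Without them the gate had 46.4 CPM, with 60.7 in P50_Depil5D, 22.7 in P45, 111 in P50, 35.0 in P63 and 68.7 in P80. By cluster, Clec4n stood at 168 CPM in the 262 Ccr7/Ccl22 cells (exact interval 139 to 201) and at 39.2 CPM in the 1099 cells of Cd209a/Mgl2 clusters, a ratio of 4.29 (3.27 to 5.61). That ratio was 4.79 in P50_Depil5D (2.77 to 8.82), 1.24 in P45 (0.32 to 3.44) and 1.64 in P50 (1.03 to 2.60), so it was clear of 1 in P50_Depil5D and P50 and not in P45. The 22 cells of the stricter Ccr7/Ccl22 gate, with 8956 CPM of its marker list, had 1 UMI of Clec4n, which is 16.0 CPM (0.405 to 89.1) and lies below the cluster. Clusters were built from the same cells, and these ratios are given with no test.

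**Figure D2:**
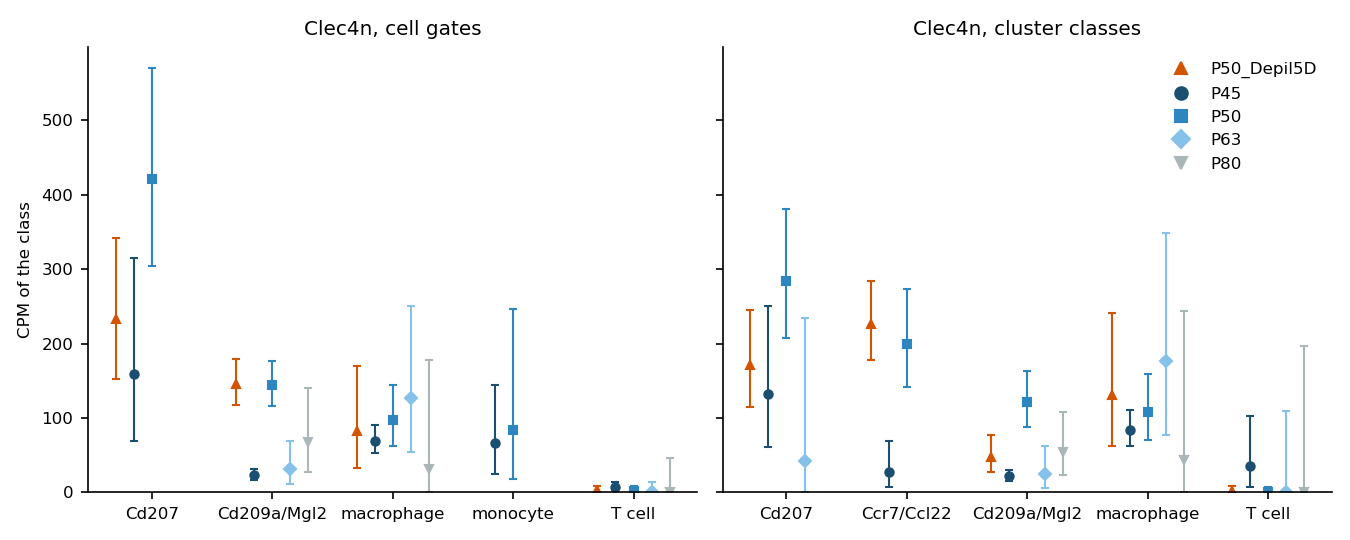
Clec4n, as CPM of the class, in cell gates (left) and in cluster classes (right), with 1 point per library of at least 10 cells and exact 95% Poisson intervals. In the Ccr7/Ccl22 clusters P50_Depil5D (226 CPM) and P50 (199 CPM) stood above P45 (26.8 CPM).

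The other activating receptors of the same block, Clec4e and Clec4d, were highest in the monocyte gate, followed by the macrophage gate. Of the 60 cells in the monocyte gate, 32 lay in the Ngp-led cluster. The gate had 165 CPM of the neutrophil list against 4718 CPM of its own, and the part of other cells in its levels was not tested. Clec4e, known as Mincle, a sensor of mycobacterial glycolipid and of dying cells, had 154 CPM in P45 monocytes and 140 CPM in P50 monocytes. Over all libraries the 60 monocytes had 152 CPM (interval 96.2 to 228), macrophages 56.6, Cd209a/Mgl2 cells 33.4 and Cd207 cells 0. Both monocyte libraries lay above every macrophage library, whose highest was P50_Depil5D at 82.2 CPM. Clec4e and Clec12a were the 2 of 8 called higher in monocytes and 0 were lower, where 2.52% of genes were called higher and 0.575% lower. The log2 fold of Clec4e over T cells was 4.41 (SE 0.83), and its call over the mean gate (3.81, adjusted p = 0.0184, edgeR) was lost without P50 (3.46, adjusted p = 0.14), with at least 20 cells per sum (adjusted p = 0.142) and with 3 markers per cell (adjusted p = 0.0886), and the fold was 5.70 without P45. Its call in macrophages (2.48, adjusted p = 0.0151) was lost without P50 too (2.33, adjusted p = 0.0808), and the fold was 3.87 without P45. Clec4d, a receptor that pairs with Clec4e, was too sparse to test, with 33.0 CPM in monocytes (5 UMIs) and 21.6 in macrophages.

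Clec12a, an inhibitory receptor that binds uric acid crystals of dead cells, was shared by Xcr1 dendritic cells, macrophages and monocytes. The Xcr1 gate, cells of the cross-presenting dendritic lineage, had 223 CPM in P50_Depil5D and 113 CPM in P45. Macrophages had 106 CPM in P50_Depil5D, 111 in P45, 141 in P50, 79.5 in P63 and 31.8 in P80, and monocytes had 121 CPM in P45 and 112 in P50. These 3 gates overlapped each other, and each pooled level (139, 113 and 112 CPM) lay above that of Cd209a/Mgl2 cells at 30.01 CPM. Log2 folds over T cells were 4.37 (SE 0.55) in Xcr1 cells, 4.04 (SE 0.40) in macrophages and 3.85 (SE 0.66) in monocytes. It was the 1 tested Clec gene called higher in the Xcr1 gate (log2 fold 3.24, adjusted p = 0.00119, edgeR; 3.97 without P45) and 0 were lower, where 4.6% of genes were called higher and 2.2% lower. The monocyte call (log2 fold 2.60, adjusted p = 0.0493) was lost when any 1 library was left out, with folds of 2.40 to 2.62 and adjusted p of 0.0588 to 0.334.

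Clec9a, the receptor for filamentous actin of dead cells that defines the Xcr1 lineage, had 14 of its 49 UMIs in the 64 Xcr1 cells. This was 60.9 CPM there (interval 33.3 to 102), with 22.3 in P50_Depil5D and 69.1 in P45, against 1.24 CPM in Cd209a/Mgl2 cells. Clec4b2, a second DCAR-family gene, had 6 of its 17 UMIs in Xcr1 cells (26.1 CPM) and 0 in the other gates described. Clec5a, which signals through the adaptor Tyrobp, had 17.5 CPM in macrophages. These 3 genes fell below 50 UMIs and were singled out after their values were seen. Clec9a and Clec1b overlap in exons on the same strand and share 3′ words, so the count of either is uncertain.

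Of the Clec2 ligands, Clec2d had UMIs in each of the 12 gates described, whereas Clec2g was at 0 in 7 of them and Clec2e had 1 UMI in all. Clec2d, known as Clr-b, the ligand of the inhibitory receptor Klrb1b, had 141 CPM in P50_Depil5D macrophages, 117 in P45, 182 in P50, 286 in P63 and 414 in P80. In T cells it had 86.6 CPM in P50_Depil5D, 93.4 in P45, 111 in P50, 111 in P63 and 137 in P80, a narrow range that overlapped the macrophages. Its log2 fold over the other gates was 2.18 in macrophages (SE 0.33; adjusted p = 3.10e-05, edgeR) and 0.95 in T cells (SE 0.33; adjusted p = 0.0235), and 3.53 and 2.16 without P45. The T cell call was lost without P50_Depil5D (log2 fold 0.98, adjusted p = 0.0568) and with clusters (0.32, adjusted p = 0.363). The T cell clusters held only 953 of the 1908 gated T cells, and 37 of the 388 in P45. Clusters led by Ccr6 and by Ctla4, which hold many gated T cells, were not named as T cells. Non-immune and lymphoid cells carried it as well, with 105 CPM in the Gzmc-led cluster, 160 CPM in the endothelial cluster (interval 105 to 235) and 46.2 CPM in the keratinocyte gate. The highest pooled level of the 12 gates was 192 CPM in the Ccr7/Ccl22 gate, where 7 of 22 cells had a UMI (31.8%, interval 13.9 to 54.9%). In the Ccr7/Ccl22 cluster of 262 cells Clec2d stood at 73.8 CPM. A UMI of Clec2d was found in 26.1% of macrophages, 14.8% of T cells and 15.7% of keratinocytes, and after thinning in 15.7%, 9.12% and 4.00%. Clec2i, or Clr-g, had 31.2 CPM in Cd209a/Mgl2 cells, 17.4 in T cells and 0.190 in keratinocytes.

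Several of the remaining genes were highest in stromal and vascular cells, which a CD45 sort is meant to remove. Clec3b, a secreted plasminogen-binding protein, had 296 CPM in the 93 cells of the fibroblast gate, with 362 in P45 and 122 in P50, and Clec11a, a secreted growth factor, had 162 CPM there. Clec16a, an intracellular protein of the mitophagy pathway, had 16.8 CPM in the endothelial gate (a UMI in 2 of 38 cells), 5.13 in keratinocytes and 3.67 in T cells. Among genes under 50 UMIs, chosen after their values were seen, Clec1a had 117 CPM in the 38 endothelial cells (interval 64.2 to 197) and 0 UMIs in T cells, and Clec14a, an endothelial surface protein, had 58.7 CPM. Both were at 0 in the 12 mural cells. Clec1b, the podoplanin receptor of platelets, had 3 UMIs in endothelial cells and 7 in macrophages, and 2 of the 3 UMIs of Clec4f, a receptor known from liver macrophages, lay in Cd207 cells. The fibroblast gate also had 103 CPM of Clec4b1, whose source, doublets or free RNA, was not tested.

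Clec4g, a liver sinusoid lectin, had 34.9 CPM in Cd209a/Mgl2 cells of P50_Depil5D, 34.7 in P45, 34.5 in P50, 21.3 in P63 and 29.2 in P80, and 16.6 CPM in macrophages. Without cells that carry a shared barcode P80 had 0 UMIs of it in 33 cells, and without the Ccr7/Ccl22-cluster cells P50_Depil5D had 15.2 CPM and P45 had 32.8. In P50_Depil5D the Ccr7/Ccl22 cluster had 64.2 CPM and the Cd209a/Mgl2 clusters had 5.90 CPM, a ratio of 10.9 (2.66 to 95.8) that rests on 2 UMIs in the second. The 22 cells of the Ccr7/Ccl22 gate had 0 UMIs of Clec4g, where 3 counts would be 48.0 CPM. The ratios in P45 (1.25, 0.44 to 2.89) and in P50 (1.24, 0.44 to 3.30) did not leave out 1. An antisense gene overlaps an exon of Clec4g, and whether strand was used in counting is not given in the sources used here.

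Signalling partners of the receptors were read from a list of 18 genes, of which 10 passed the filter. In the Cd209a/Mgl2 gate 4 were called higher and 2 lower, where 16.5% and 3.13% of all tested genes were. The lower ones were Ptpn6 (log2 fold -1.03, SE 0.28) and Hcst (-0.77, SE 0.26). In macrophages 3 were higher and 0 lower, where 16.8% and 5.14% were. The higher ones in macrophages were the adaptors Fcer1g (log2 fold 1.10, SE 0.18) and Tyrobp (1.06, SE 0.27) and the kinase Syk (2.13, SE 0.52), with adjusted p of 8.10e-05, 0.0056 and 0.00421 by edgeR. In the Xcr1 gate, where 4.6% of genes were called higher and 2.2% lower, 0 were higher and 2 lower. These were Fcer1g (-2.58, SE 0.35, adjusted p = 3.31e-05) and the signalling scaffold Bcl10 (-1.70, SE 0.47, adjusted p = 0.026). T cells had 4 higher, with the adaptor Hcst leading (3.33, SE 0.21), and 3 lower, where 24.2% and 18.0% of genes were. The lower ones there were Tyrobp (-2.52, SE 0.32), Syk (-2.35, SE 0.84) and Prkcd (-1.94, SE 0.34). Klrb1b, the receptor of Clec2d, was called higher in Cd209a/Mgl2 cells (1.73, SE 0.37) and in T cells (1.51, SE 0.38). In the Cd207 and monocyte gates 0 of the 10 were called, with 1 and 5 at an unadjusted p under 0.05. With clusters 14 of the 18 passed the filter, and the calls differed. T cell clusters had 10 higher, with Fcer1g at 1.46, and 1 lower, where 1092 and 799 of 4534 genes were. Syk and Prkcd had no usable error there. Xcr1 clusters had 2 higher and 3 lower, where 378 and 254 genes were, and Cd207 clusters 2 higher, where 544 were. Cd209a/Mgl2 clusters had 5 higher and macrophage clusters 4, with 0 lower in each, where 941 and 800 genes were higher.

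The macrophages divided into a Trem2-led cluster of 178 cells and a Ccl8-led cluster of 230 cells, and Clec genes differed between them. Clec12a had 219 CPM in the Trem2-led cluster and 29.6 in the Ccl8-led one, a ratio of 7.39 (exact interval 4.32 to 13.5). It was 1.90 in P50_Depil5D (0.22 to 22.8), 8.36 in P45 (4.35 to 17.7) and 6.34 in P50 (1.96 to 32.6), so the first of these did not leave out 1. Clec2d ran the other way, with 76.2 CPM in Trem2-led and 243 in Ccl8-led cells, a ratio of 0.31 (0.21 to 0.47). Its ratio was below 1 in each of the 3 libraries, but in P50_Depil5D (0.35, 0.06 to 1.31) the interval held 1. Over all libraries the ratio was 6.21 for Clec4d (2.54 to 18.3), 2.73 for Clec4e (1.47 to 5.30), 1.73 for Clec4b1 (1.32 to 2.27) and 1.64 for Clec4a2 (1.32 to 2.05). Their order differed between libraries. In P50 Clec4e was at 1.02 (0.24 to 4.91) and Clec4b1 at 3.21 (1.65 to 6.82), and for Clec4d the ratio was 3.12 in P45 (0.45 to 34.5) and 3.56 in P50 (1.20 to 14.3), below the summed value. The intervals for Clec4n (1.21, 0.78 to 1.85) and Clec4a3 (0.86, 0.64 to 1.15) held 1. The clusters were drawn from the same cells, so these ratios carry no test and their intervals cover counting error only.

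**Figure D3:**
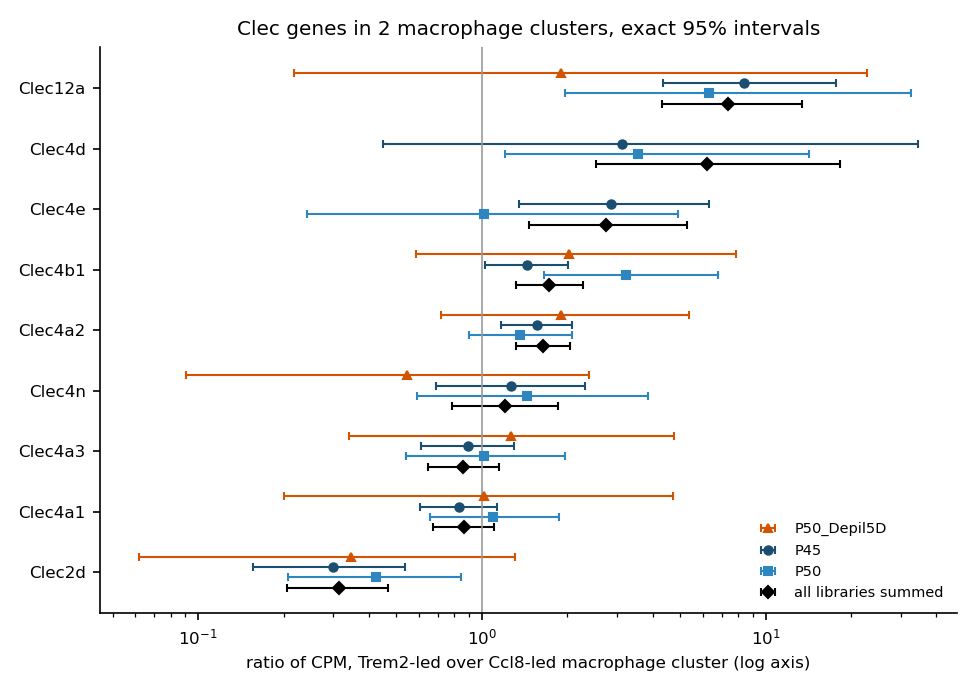
Ratio of CPM in the Trem2-led over the Ccl8-led macrophage cluster (log axis) for 9 Clec genes, by library and for all libraries summed, with exact 95% intervals. Clec12a lay at 7.39 and Clec2d at 0.31 over all libraries.

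Age was compared between P80 and P45 within gates of at least 20 cells, with 1 library each and therefore no test. Genes with at least 10 UMIs in the pair were counted, and a change past 2-fold on the log2(CPM + 10) scale was noted. In Cd209a/Mgl2 cells, 1 of 11 Clec genes was higher and 1 lower past that fold, where 5.09% and 13.3% of all counted genes were. The higher one was Clec4n, with 68.1 CPM (7 UMIs) in P80 and 23.3 in P45, a ratio of 2.92 (1.10 to 6.61). Without cells that carry a shared barcode, P80 had 0 UMIs of it in 33 cells and the log2 ratio was -1.74. Clec4b1 had 448 CPM in P80 and 388 in P45, a ratio of 1.15 (0.84 to 1.56). Without shared-barcode cells it had 277 CPM (14 UMIs) in P80 and 388 in P45, a ratio of 0.71 (0.39 to 1.21), and 3 of the genes were lower past the fold.

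In macrophages, 1 of 11 was higher and 5 lower in P80 than in P45, where 11.1% and 37.6% of counted genes were and the median gene stood at -0.25 on the log2 scale. P80 had only 28 macrophages, with 732 CPM of keratinocyte markers against 47.0 to 207 in the other libraries. Clec4b1 had 31.8 CPM (1 UMI) in P80 and 368 in P45, a ratio of 0.0866 (0.00218 to 0.486). Without shared-barcode cells it had 0 UMIs in 23 P80 cells (ratio at most 0.414), and 8 of the genes were lower. Clec2d had 414 CPM in P80 and 117 in P45, a ratio of 3.53 (1.81 to 6.33). The Ccl8-led cluster, the one with more Clec2d, made up 76.2% of the cells of both clusters in P80 (16 of 21) and 58.7% in P45. The part of this make-up in the Clec2d ratio was not tested. In T cells, 0 of 8 were higher and 6 lower, where 7.95% and 17.7% were, and Clec4b1 had 0 UMIs in P80 and 66 in P45 (ratio at most 0.719). The 42 P45 cells and the myeloid marker RNA described above moved with that difference, and their part in it was not tested.

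Depilation was compared as P50_Depil5D over P50, again 1 library each. In Cd209a/Mgl2 cells 0 of 10 Clec genes passed 2-fold in either direction, where 0.462% of counted genes were higher and 2.89% lower. Clec4a3 had 111 CPM in P50_Depil5D and 161 in P50, a ratio of 0.69 (0.50 to 0.94). Clec4n had 146 CPM in P50_Depil5D and 144 in P50, a ratio of 1.01 (0.75 to 1.37), but leaving out the cells of the Ccr7/Ccl22 cluster gave 0.55 (0.32 to 0.90) and clusters gave 0.39 (0.20 to 0.70). The cells left out were 88 in P50_Depil5D and 51 in P50.

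In the Cd207 gate 0 of 2 genes passed 2-fold, where 6.35% were higher and 7.82% lower, and Clec4n had 233 CPM in P50_Depil5D and 422 in P50, a ratio of 0.55 (0.33 to 0.92). In macrophages 0 of 9 were higher and 2 lower, where 4.37% and 16.3% were. Clec4a1 had 94.0 CPM (8 UMIs) in the 39 P50_Depil5D macrophages and 299 in P50, a ratio of 0.31 (0.13 to 0.65). Clec4a2, within 2-fold, had 247 CPM in P50_Depil5D and 465 in P50 (0.53, 0.32 to 0.85). In T cells 0 of 3 passed, where 0.328% were higher and 0.258% lower.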

How the data were processed

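Live CD45+ dermal cells had been captured in droplets and their 3′ ends sequenced, per the labels' protocols. The matrices as deposited give UMI counts, whole numbers for each gene and barcode, and the submitters' processing notes name mm10 and Seurat. Aligner, counter, annotation and use of strand: not given in the sources used here. Clec7a is not analysed here.

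A cell was kept if it had at least 200 genes and no more than 10% mitochondrial UMIs. Scrublet (scanpy 1.11.5) marked 21 cells (0.341%), a share so low that the caller is taken not to have worked, so doublets remain among the 6141 cells kept of 6223 barcodes. Gates needed at least 2 of 6 markers, the gate with most markers won, and ties and 1087 cells in no gate were left out. UMIs were summed per gate and library and tested with edgeR 4.0.16 (R 4.3.3; TMM, filterByExpr, sums of at least 10 cells), after a check on simulated data. Clusters (Leiden, resolution 2, igraph 0.11.9, Clec genes left out) gave 39 groups, without batch integration. Levels have exact Poisson, shares Clopper-Pearson and ratios exact conditional 95% intervals, computed with scipy 1.17.1, which cover counting error only. DESeq2 1.42.0 was an alternative. Coordinates are from GENCODE vM21.

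Every Clec gene with at least 50 UMIs was named with its levels, and others by their totals unless stated. In the age and depilation pairs, genes past 2-fold whose interval leaves out 1 were named, with any other chosen after its values were seen. The genes, markers and lists were chosen with earlier results of these data known. No column of another sample was found (0).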

Additional observations from a re-analysis of the deposited data

Results flagged for a closer look

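The change of Clec4b1 with age had a different sign in different cells. Its log2 ratio of P80 over P45, with 10 CPM added, was -3.17 in macrophages and -2.92 in T cells but 0.20 in Cd209a/Mgl2 cells. The macrophage value rests on 1 UMI in P80 and the T cell value on 0. The Cd209a/Mgl2 ratio has an interval that holds 1 (0.84 to 1.56), and without cells that carry a shared barcode its log2 value was -0.47, so the signs then no longer differed. Clec4n was at 1.23 in Cd209a/Mgl2 cells and -0.93 in macrophages, the second on 1 UMI in P80 with an interval of the ratio from 0.0114 to 2.66. Without cells that carry a shared barcode the Cd209a/Mgl2 value was -1.74 and both were below 0. With 1 library per age, no difference between cell types was tested.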

How the results depend on the processing

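Of 24 Clec calls in the tested gates, 13 kept their direction and their side of the threshold under every alternative that fitted the gate. Those that did not are given with their adjusted p above, except Clec12a in monocytes, lost in 12 alternatives (adjusted p from 0.0503 to 0.334). The number called, against the reported number, changed by over 1.5 times as follows, and the cause was not tested. In Cd209a/Mgl2 cells, no low-count filter gave 8 higher (5 reported). In Xcr1 cells (1 higher, 0 lower), no filter gave 4 higher and 3 lower, 20 cells per sum 2 higher, 3 markers 2 higher, clusters 3 higher and 1 lower, the T cell gate as the comparison 3 higher, and DESeq2 1 lower. In Cd207 cells (1 higher, 4 lower), clusters and the T cell gate each gave 2 higher and 1 lower. The cluster fits of Clec4b1 and Clec12a there gave no usable error. In monocytes (2 higher), no filter gave 4, the T cell gate 6, 20 cells per sum 0, 3 markers 0, and 1 was left with 500 genes per cell, with Scrublet scores over 0.2 removed, without the Ccr7/Ccl22-cluster or Gzmc-led-cluster cells, and with P45, P50 and P50_Depil5D only. In T cells (1 higher, 2 lower), clusters gave 0 higher and 1 lower, with no usable error for Clec4a1 and Clec4a2, and DESeq2 gave 7 lower. Leaving out 1 library gave 1 to 2 higher in Xcr1 cells, 2 to 4 lower in Cd207 cells, 0 to 3 higher in monocytes (0 without P50, 1 without P63 or P80), and 0 to 1 higher (0 without P50_Depil5D) and 1 to 2 lower (1 without P45) in T cells. Clec4a2 in the Cd207 gate turned to a log2 fold of 0.0021 with clusters and 0.24 over T cells.

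For P80 over P45 in Cd209a/Mgl2 cells (1 higher, 1 lower), TMM, 1 CPM added and 500 genes each gave 3 higher, 3 markers 2 higher, clusters 0 lower, 500 genes 2 lower and no shared barcodes 3 lower, with Clec4n at -1.74. In macrophages (1 higher, 5 lower), a minimum of 3 UMIs gave 2 higher and no shared barcodes 8 lower, and in T cells (6 lower) clusters gave 1. For P50_Depil5D over P50 in Cd209a/Mgl2 cells (0 and 0), clusters gave 1 higher and 2 lower and leaving out the Ccr7/Ccl22-cluster cells 1 higher. In macrophages (2 lower) clusters gave 1, and in T cells (0 lower) 1 CPM added gave 1. No paired analysis was possible because each group has 1 library. Depth limits P80 most, where a macrophage level of 31.8 CPM is 1 UMI.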

Other observations

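The clusters given here lie outside the classes above and were singled out after their values were seen. An unnamed cluster of 334 cells led by Retnla and Lpl had 685 CPM of Clec4b1 (exact interval 629 to 744), with 525 in P50_Depil5D, 797 in P45, 496 in P50, 519 in P63 and 535 in P80. It also had 437 CPM of Clec4a2. Of its cells, 132 lay in the Cd209a/Mgl2 gate, 62 in the macrophage gate and 128 in none. A cluster of 170 cells was led by the neutrophil genes Ngp, S100a9, Camp and S100a8 and by the monocyte markers Plac8 and Chil3. It held 32 of the 60 gated monocytes and the 3 cells of the neutrophil gate. It had 182 CPM of Clec4e, 157 of Clec12a, 216 of Clec4a3 and 337 of Clec4b1. An unnamed cluster of 92 cells led by the cell cycle genes Hist1h2ap and Birc5 had 288 CPM of Clec4b1, 207 of Clec4a2 and 114 of Clec12a.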
